A study of Homo sapiens with 16 samples.

Results

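The genes described here are 9 well-known androgen-induced genes outside the kallikrein family, namely TMPRSS2, SLC45A3, PMEPA1, NDRG1, CAMKK2, ELL2, ABCC4, HERC3 and TRPM8. They were taken by name from a table of 60642 gene symbols. All 9 passed the filter on low values, which left 16636 genes for testing. The question asked of each gene was how far it responded to dihydrotestosterone (DHT), the most potent natural androgen, and how much of that response remained when an antiandrogen was present.

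RNA was sequenced from LNCaP, an androgen-sensitive line from a lymph node metastasis of prostate carcinoma, which carries a mutated androgen receptor with a broadened ligand response. Cells grew for 72 h in 5% fetal bovine serum and then for 48 h in 5% charcoal-stripped serum, which is depleted of steroids, before a 48 h treatment. The treatments combined 10 nM DHT or its ethanol vehicle with DMSO or 10 µM of an antagonist, giving 8 groups of 2 biological duplicates. VEH received both vehicles and DHT received the hormone with DMSO, while BIC.VEH and BIC.DHT received bicalutamide, ENZ.VEH and ENZ.DHT enzalutamide, and APA.VEH and APA.DHT apalutamide. All groups shared the single cell line, the stripped serum and the 2 solvents, so no group stands for untreated cells in full serum. Enzalutamide and apalutamide are close relatives built on the same thiohydantoin core, and apalutamide carries a spiro cyclobutane and a pyridine ring where enzalutamide has a pair of methyl groups and a benzene ring. Bicalutamide is an older propanamide that lacks this core.

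Androgen bound by its receptor moves the receptor to the nucleus, where it binds response elements, many of them in distant enhancers, and raises transcription of nearby genes. In prostate epithelium these genes include secreted and membrane proteins of the luminal cell, transporters, kinases and transcription elongation factors. Antiandrogens occupy the same ligand pocket. Some of them can leave the receptor partly active, depending on the receptor variant.

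Gene levels were given as TPM, an estimate of transcript abundance corrected for transcript length and for the total of the library, so that levels of different genes can be set side by side. The labels state about 40 M read pairs of 125 bp per library, but TPM keeps no depth, and precision was judged from the spread between libraries alone. Column totals ran from 976190 to 983114 TPM, and mitochondrial transcripts took 14.7% to 22.3%, with both extremes in the DHT group. The 7 luminal markers summed to between 2273 and 3247 TPM in the 16 libraries. Of 10 markers of basal, stromal, immune and endothelial cells, 3 passed the filter. Their sum ran from 14.6 to 18.4 TPM with DHT and from 27.6 to 34.2 TPM in VEH, nearly all of it COL1A1, which fell with DHT (adjusted p = 0.00357), while KRT14 rose to 1.68 and 1.59 TPM (adjusted p = 0.00394) and KRT5, TP63, COL1A2, DCN, PTPRC, CD3E and PECAM1 were listed at 0.16 TPM or less everywhere. The 8 markers of dividing cells summed to 278 and 573 TPM in the DHT libraries against 98.7 and 273 TPM in VEH. Their median log2 change was 1.22, and each of the 8 was higher with DHT within replicate 1 and within replicate 2. None was called in the fit, which treats the gap between replicate 1 and replicate 2 as spread. Their part in the results below was not tested. In bulk RNA, fewer transcribing cells and less RNA per cell cannot be told apart.

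Promoter sequences were available for 6 of the 9 genes, as 15 windows of 250 bases before an annotated start (RefSeq, GRCh38.p14). The 3 printed here are the outermost windows of TRPM8 and SLC45A3, the genes that kept the largest shares of their response with bicalutamide, and of ABCC4, a called gene that kept little. Capitals mark TATAAA.
TRPM8, chr2:233917123-233917372, plus strand: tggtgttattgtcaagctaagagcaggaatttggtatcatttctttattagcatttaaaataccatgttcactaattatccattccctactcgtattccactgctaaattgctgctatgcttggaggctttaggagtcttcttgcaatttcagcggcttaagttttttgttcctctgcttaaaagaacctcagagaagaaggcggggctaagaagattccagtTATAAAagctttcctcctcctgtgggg
SLC45A3, chr1:205680510-205680759, minus strand: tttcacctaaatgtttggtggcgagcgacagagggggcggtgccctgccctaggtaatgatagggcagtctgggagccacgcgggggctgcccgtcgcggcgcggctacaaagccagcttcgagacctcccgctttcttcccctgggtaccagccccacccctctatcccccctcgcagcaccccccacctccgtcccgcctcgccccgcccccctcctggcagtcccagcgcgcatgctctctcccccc
ABCC4, chr13:95301452-95301701, minus strand: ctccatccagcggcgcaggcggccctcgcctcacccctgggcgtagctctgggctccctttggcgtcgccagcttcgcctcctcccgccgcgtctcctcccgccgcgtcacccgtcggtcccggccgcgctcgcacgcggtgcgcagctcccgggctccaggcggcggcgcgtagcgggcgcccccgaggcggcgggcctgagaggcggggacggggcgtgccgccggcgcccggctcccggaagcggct
The TRPM8 window was 40.0% G and C, and 13.4% of all 35116 windows had as little or less. The SLC45A3 window was 69.2% and the ABCC4 window 80.4% G and C. TATAAA began 27 bases before the TRPM8 start and was in none of the other 14 windows, and 10.7% of all windows held it on either strand. The androgen half-site AGAACA, searched as AGAACA or TGTTCT, occurred in 2 of the 15 windows, at inner starts of PMEPA1 and TRPM8, against 12.4% of all windows. The full palindrome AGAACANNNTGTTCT, which contains both half-sites, was in none of the 15 and in 0.0028% of all. These matches describe letters only, and response elements in distant enhancers lie outside such windows.

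DHT raised 8 of the 9 genes, by 1.54 to 3.46 on the log2(TPM + 1) scale, and CAMKK2 did not pass the test. Of all genes tested, 3.63% were called higher with DHT and 6.64% lower. The median change was 1.99 over the 9 genes and -0.10 over all genes. Scaling by median ratios moved the all-gene median to 0.01 and the calls over all genes from 604 higher and 1105 lower to 1047 higher and 861 lower, and 8 of the 9 genes were called higher under both. Calls rest on limma's moderated test with Benjamini-Hochberg adjustment over all genes at 0.05, and comparisons that use the same DHT or VEH libraries are not independent of each other.

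TRPM8, a calcium-permeable channel opened by cold and menthol (chromosome 2, 233917373 to 234019522), showed the largest response of the 9. It stood at 2.64 and 2.18 TPM in VEH and at 39.1 and 33.8 TPM with DHT. The groups lay far apart on a low base, with a 15.1-fold ratio of mean TPM and a log2 change of 3.46 ± 0.25 (SE, n = 2 per group, adjusted p = 1.85e-05).

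TMPRSS2, a transmembrane serine protease whose promoter is fused to ETS genes in many prostate tumours (chromosome 21, 41464305 to 41508158), was the most abundant of the 9 with DHT. It stood at 46.4 and 31.1 TPM in VEH and at 429 and 279 TPM with DHT. Replicates differed widely within DHT, yet both libraries were far above VEH, and the log2 change was 3.15 ± 0.32 (SE, n = 2 per group, adjusted p = 0.000174).

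SLC45A3, the prostate-restricted transporter prostein (chromosome 1, 205657851 to 205680509), went from 23.3 and 20.7 TPM in VEH to 133 and 159 TPM with DHT. The log2 change was 2.67 ± 0.20 (SE, n = 2 per group, adjusted p = 2.13e-05), or 6.63-fold on mean TPM. ABCC4, an efflux pump for cyclic nucleotides and organic anions (chromosome 13, 95019835 to 95301451), rose from 35.4 and 32.7 to 100.4 and 114 TPM, a log2 change of 1.62 ± 0.16 (SE, n = 2 per group, adjusted p = 0.000158). Of these 4 membrane proteins ABCC4 responded least.

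Among regulators of signalling, PMEPA1, a membrane-anchored inhibitor of TGF-β signalling (chromosome 20, 57648396 to 57711472), stood at 21.5 and 14.5 TPM in VEH and at 86.8 and 83.0 TPM with DHT. Its log2 change was 2.20 ± 0.21 (SE, n = 2 per group, adjusted p = 0.00013). NDRG1, a cytoplasmic protein also induced by hypoxia and metal chelation (chromosome 8, 133237175 to 133297252), had the highest VEH level of the 9, 78.9 and 50.8 TPM, and rose to 200.2 and 174 TPM. Its log2 change of 1.54 ± 0.30 (SE, n = 2 per group, adjusted p = 0.0086) was the smallest of those called. The NDRG1 call was lost without DHT replicate 1 (adjusted p = 0.0645) and without VEH replicate 2 (adjusted p = 0.0762).

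CAMKK2, a calcium-dependent kinase that activates AMPK (chromosome 12, 121237692 to 121297819), stood at 28.4 and 27.9 TPM in VEH and at 27.8 and 35.4 TPM with DHT. The VEH libraries lay inside the range of the DHT libraries. The log2 difference was 0.15, with a 95% interval from -0.29 to 0.59 (adjusted p = 0.69), so a response as large as that of any of the other 8 genes lay above the interval. Its sign turned without DHT replicate 2 (log2 difference -0.018).

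ELL2, an elongation factor of the super elongation complex (chromosome 5, 95885098 to 95961851), rose from 13.0 and 12.6 TPM to 44.2 and 57.6 TPM, a log2 change of 1.90 ± 0.22 (SE, n = 2 per group, adjusted p = 0.000457). HERC3, a HECT-domain ubiquitin ligase (chromosome 4, 88523843 to 88708539), rose from 54.5 and 34.2 TPM to 182 and 167 TPM, a log2 change of 1.99 ± 0.33 (SE, n = 2 per group, adjusted p = 0.00357). VEH and DHT libraries did not overlap for any of the 8 called genes, and 20% of all genes tested were likewise higher without overlap. With only the VEH and DHT libraries in the fit, 6 of the 9 were called, and NDRG1 and HERC3 had adjusted p-values of 0.0675 and 0.058. In the RefSeq annotation SLC45A3, PMEPA1, ELL2, ABCC4 and HERC3 overlapped 1 or more other annotated genes, and although the libraries were strand-specific, whether the counting used strand is not given in the sources used here.

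**Figure D1:**
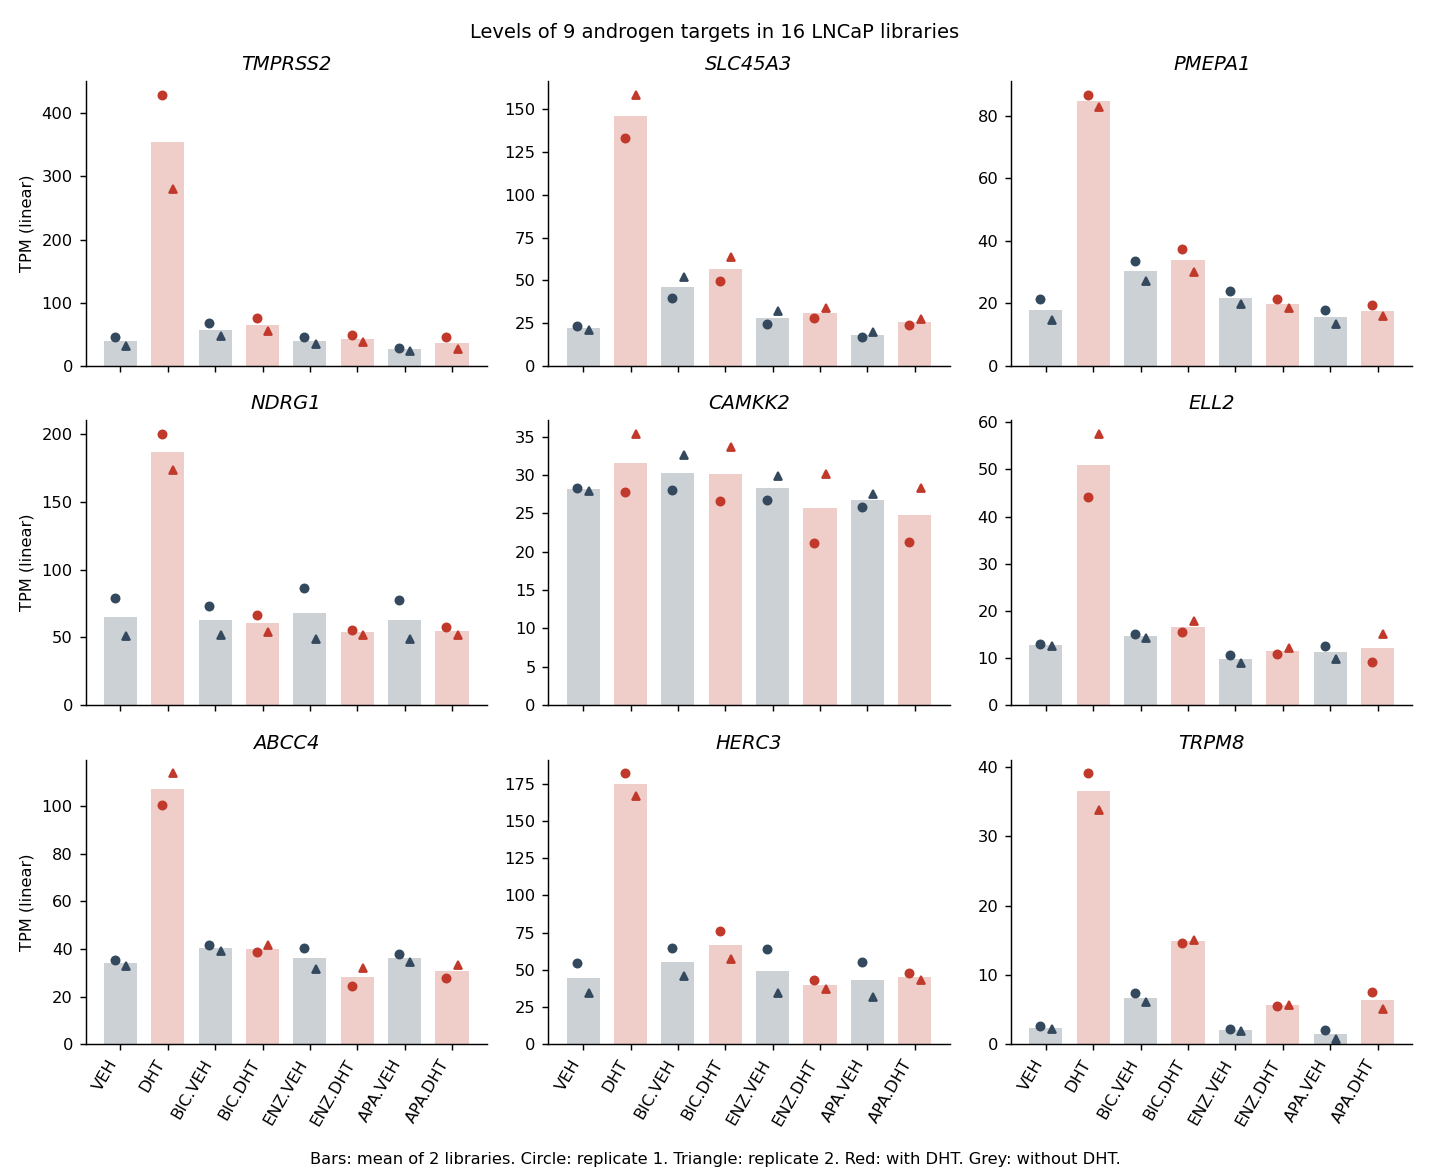
TPM of the 9 genes on linear axes that start at 0, 1 panel per gene, by group. Bars are the mean of 2 libraries, circles replicate 1 and triangles replicate 2, red with DHT and grey without. The DHT mean is the highest in every panel, and only for CAMKK2 do the DHT libraries overlap those of other groups. In TRPM8 the BIC.DHT libraries, at 14.7 and 15.1 TPM, form a clear second step.

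Bicalutamide lowered the same 8 genes against DHT alone. The log2 changes of BIC.DHT against DHT ran from -2.41 for TMPRSS2 to -1.24 for TRPM8, and 1.68% of all genes tested were called lower. TMPRSS2 fell to 76.1 and 54.6 TPM (adjusted p = 0.0026), SLC45A3 to 49.7 and 63.6 TPM (log2 change -1.35, adjusted p = 0.00416) and PMEPA1 to 37.5 and 30.2 TPM (log2 change -1.31, adjusted p = 0.00857). All of these libraries lay below DHT and above VEH. NDRG1 fell to 66.6 and 53.9 TPM (log2 change -1.62, adjusted p = 0.0167), within its VEH range. ELL2 fell to 15.5 and 17.8 TPM (log2 change -1.55, adjusted p = 0.00359) and ABCC4 to 38.7 and 41.5 TPM (log2 change -1.39, adjusted p = 0.0011), both slightly above VEH without overlap. HERC3 fell to 75.9 and 57.0 TPM (log2 change -1.39, adjusted p = 0.0476) and TRPM8 to 14.7 and 15.1 TPM (adjusted p = 0.0224). CAMKK2 stood at 26.6 and 33.6 TPM with bicalutamide and DHT. Not all of these calls held when 1 library was left out, which leaves 1 library in a group. In those fits the log2 change ran from -1.77 to -1.47 for NDRG1, from -1.60 to -1.19 for HERC3 and from -1.34 to -1.13 for TRPM8. Leaving out 1 library left 3 called genes without BIC.DHT replicate 1 or DHT replicate 2, and 4 without BIC.DHT replicate 2 or DHT replicate 1. NDRG1, HERC3 and TRPM8 lost their calls in all 4 cases, the HERC3 call also with a pseudocount of 0.1 (adjusted p = 0.0502), without the filter (0.0925) and rescaled without mitochondrial genes (0.0586), and the TRPM8 call with a pseudocount of 0.1 (0.0806). With only the BIC.DHT and DHT libraries in the fit none was called at the adjusted level (8 at an unadjusted p under 0.05, lowest adjusted p = 0.114).

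Enzalutamide lowered the 8 genes to about their VEH levels, except TRPM8 and SLC45A3, whose libraries stayed above those of VEH. Neither difference from VEH was called by limma (adjusted p = 0.736 for both). Of all genes tested, 7.23% were likewise above VEH without overlap. SLC45A3 was also above VEH with enzalutamide and no DHT, at 24.2 and 32.3 TPM. Log2 changes of ENZ.DHT against DHT ran from -2.99 for TMPRSS2 to -1.77 for NDRG1, and 4.91% of all genes tested were called lower. TMPRSS2 fell to 49.0 and 37.1 TPM (adjusted p = 0.000296), SLC45A3 to 27.7 and 33.6 TPM (log2 change -2.21, adjusted p = 8.92e-05) and PMEPA1 to 21.3 and 18.5 TPM (log2 change -2.04, adjusted p = 0.000265). NDRG1 fell to 55.7 and 52.0 TPM (adjusted p = 0.00504), ELL2 to 10.8 and 12.2 TPM (log2 change -2.04, adjusted p = 0.000296) and ABCC4 to 24.6 and 32.1 TPM (log2 change -1.89, adjusted p = 7.49e-05). The ELL2 and ABCC4 libraries lay below both VEH libraries, as did those of 25.3% of all genes tested. HERC3 fell to 43.5 and 36.9 TPM (log2 change -2.10, adjusted p = 0.00309), and TRPM8 to 5.52 and 5.73 TPM (log2 change -2.49, adjusted p = 0.000189), still above its VEH libraries. CAMKK2 stood at 21.2 and 30.1 TPM, a log2 difference of -0.30 from DHT (adjusted p = 0.363).

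Apalutamide gave nearly the same levels. Log2 changes of APA.DHT against DHT ran from -3.25 for TMPRSS2 to -1.75 for NDRG1 among the 8 genes, all called lower, against 4.11% of all genes tested. TMPRSS2 fell to 46.1 and 27.2 TPM (adjusted p = 0.000188), SLC45A3 to 23.8 and 27.5 TPM (log2 change -2.46, adjusted p = 4.44e-05) and PMEPA1 to 19.6 and 15.8 TPM (log2 change -2.21, adjusted p = 0.000174). The first and the last of these overlapped VEH, whereas SLC45A3 lay just above it, as did 7.21% of all genes without overlap. NDRG1 fell to 58.0 and 52.0 TPM (adjusted p = 0.00545), ELL2 to 9.07 and 15.2 TPM (log2 change -2.01, adjusted p = 0.00033) and ABCC4 to 28.0 and 33.5 TPM (log2 change -1.77, adjusted p = 0.000112). HERC3 fell to 47.9 and 43.0 TPM (log2 change -1.92, adjusted p = 0.0053) and TRPM8 to 7.61 and 5.15 TPM (log2 change -2.36, adjusted p = 0.000272). CAMKK2 stood at 21.3 and 28.3 TPM, a log2 difference of -0.34 from DHT (adjusted p = 0.319). With only the compared groups in the fit none of the 9 was called for enzalutamide or apalutamide at the adjusted level, while 8 had an unadjusted p under 0.05 for each and the lowest adjusted p-values were 0.0608 and 0.101.

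How much of its DHT response each gene kept was computed on the log2(TPM + 1) scale. It is the distance of the antagonist plus DHT group from VEH over the distance of DHT from VEH. On it 0% is the VEH level and 100% the DHT level. A rise with the antagonist alone thus counts as kept. BIC.VEH was already above VEH by 1.18 for TRPM8, 1.02 for SLC45A3 and 0.73 for PMEPA1, none of them called. From BIC.VEH to BIC.DHT they rose by 1.04, 0.30 and 0.16, also not called, against 3.46, 2.67 and 2.20 without antagonist. With bicalutamide TRPM8 kept 64.2% ± 6.3 (SE, n = 2 per group), SLC45A3 49.4% ± 6.3 and PMEPA1 40.4% ± 8.5. HERC3 kept 30.0% ± 14.8, TMPRSS2 23.7% ± 9.2, ELL2 18.3% ± 10.6 and ABCC4 14.3% ± 9.3. NDRG1 kept nothing measurable (-5.1% ± 20.2). The 3 largest shares lay more than 4 SE above 0, and that of NDRG1 was within 1 SE of 0. On untransformed TPM the shares were lower, 36.6% for TRPM8, 28.0% for SLC45A3 and 23.6% for PMEPA1, in the same order.

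With enzalutamide TRPM8 kept 27.8% ± 6.4 (SE, n = 2 per group) and SLC45A3 17.1% ± 6.8, and the other 6 called genes lay between -16.3% for ABCC4 and 7.1% for PMEPA1. With apalutamide TRPM8 kept 31.7% ± 6.3 and SLC45A3 8.0% ± 7.0, and the others lay between -13.1% for NDRG1 and 3.5% for HERC3. TRPM8 had the largest share of the 8 under each antagonist. Its DHT difference from the vehicle group of the same antagonist ran in another order, 1.04 with bicalutamide, 1.13 with enzalutamide and 1.64 with apalutamide. On untransformed TPM its shares were 9.4% with enzalutamide and 11.7% with apalutamide, and those of SLC45A3 were 7.0% and 3.0%. The share of CAMKK2 cannot be read, because its denominator was near 0 and its SE exceeded 100%.

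Over the 8 called genes the median share was 26.9% with bicalutamide, -0.12% with enzalutamide and -1.8% with apalutamide. With CAMKK2 counted in, whose own share cannot be read, the medians over the 9 genes were 30.0%, -5.4% and -3.1%. The medians over the 9 genes in the single antagonist libraries were 31.2% and 23.3% with bicalutamide, 0.44% and -1.1% with enzalutamide and 4.2% and -0.30% with apalutamide, so that those of enzalutamide and apalutamide lay near 0 with no settled sign. For the 604 genes called higher with DHT the medians were 22.7%, 1.7% and 1.9%. Against those 604 genes TRPM8 ranked 14th from the top with bicalutamide, 65th with enzalutamide and 45th with apalutamide, while SLC45A3 ranked 49th, 131st and 224th. NDRG1 ranked 565th, 444th and 483rd. These ranks describe position only, since all shares use the same DHT and VEH libraries. Leaving out VEH replicate 2 moved the bicalutamide median over the 9 genes to 17.3%, leaving out VEH replicate 1 moved it to 40.0%, and the medians of enzalutamide and apalutamide turned positive without VEH replicate 1 (9.6% and 6.0%).

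**Figure D2:**
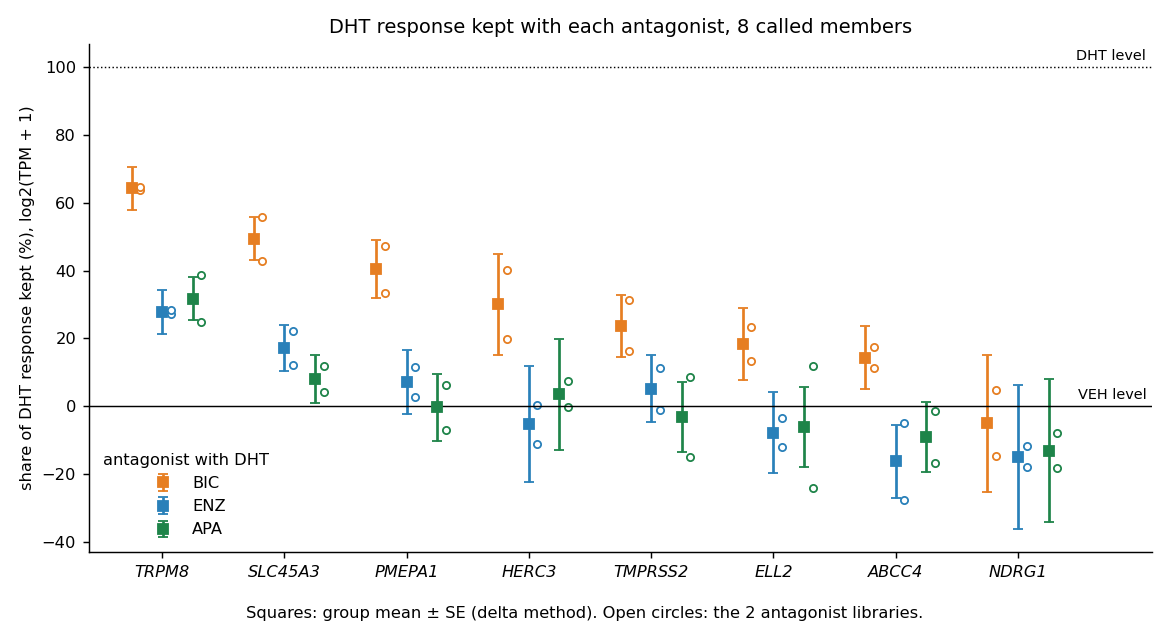
Share of the DHT response kept (%, on log2(TPM + 1)) by the 8 called genes with bicalutamide (orange), enzalutamide (blue) and apalutamide (green). Squares with bars are group means ± SE and open circles the 2 antagonist libraries, with 0% the VEH level and 100% the DHT level. Any rise with the antagonist alone is part of the share. TRPM8 is highest in each colour (64.2%, 27.8% and 31.7%), and the bicalutamide shares fall from it to -5.1% for NDRG1.

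Compared directly with VEH, BIC.DHT left TRPM8 higher by 2.22 on the log2 scale (95% interval 1.68 to 2.76, adjusted p = 0.0324), or 6.16-fold on mean TPM. It was 1 of only 2 genes called higher in this comparison, 0.012% of those tested. The call was lost when any 1 of the 4 libraries was left out (adjusted p from 0.258 to 0.346) and with a pseudocount of 0.1 (adjusted p = 0.0744), although the log2 difference stayed between 2.12 and 2.32 without each library. SLC45A3 was 1.32 above VEH (interval 0.89 to 1.75, adjusted p = 0.123), PMEPA1 0.89 (0.42 to 1.36, adjusted p = 0.49) and TMPRSS2 0.75 (0.05 to 1.45, adjusted p = 1). None of these 3 passed the test. After rescaling without mitochondrial genes SLC45A3 did (adjusted p = 0.0424), and with the replicate number as a block all 3 did (adjusted p = 0.0275 for TMPRSS2, 0.00225 for SLC45A3 and 0.00999 for PMEPA1), beside TRPM8. The block called 88 of all genes in this comparison, in either direction. With BIC.DHT, 7 of the 9 genes were above VEH without overlap, against 7.48% of all genes. In ENZ.DHT against VEH none of the 9 was called, with 2 at an unadjusted p under 0.05, TRPM8 at 0.96 (interval 0.42 to 1.51, adjusted p = 0.736) and SLC45A3 at 0.46. In APA.DHT against VEH none was called, with 1 at an unadjusted p under 0.05, TRPM8 at 1.10 (interval 0.55 to 1.64, adjusted p = 0.916). The calls over all genes were 0.00601% of those tested, all higher, for enzalutamide and 0% for apalutamide. At an unadjusted p under 0.05, 122 of all genes were higher and 612 lower for enzalutamide, and 111 and 397 for apalutamide.

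Each antagonist without DHT was also set against VEH. In BIC.VEH, TRPM8 stood at 7.35 and 6.12 TPM, SLC45A3 at 40.0 and 52.1 TPM and PMEPA1 at 33.4 and 27.0 TPM. All 6 of these libraries were above the VEH libraries of the same gene. The log2 differences were 1.18 (95% interval 0.64 to 1.72), 1.02 (0.59 to 1.45) and 0.73 (0.26 to 1.20), and none was called (adjusted p = 1 for each). With the replicate block SLC45A3 was (adjusted p = 0.0345), where 3 of all genes were called in either direction. Without the block no gene at all was called by limma in BIC.VEH against VEH (0%), with 3 of the 9 and 194 of all genes at an unadjusted p under 0.05. Of the 9 genes, 6 were higher without overlap, against 7.51% of all genes. TMPRSS2 stood at 67.8 and 47.3 TPM, HERC3 at 64.4 and 46.0 TPM, ELL2 at 15.1 and 14.3 TPM, ABCC4 at 41.7 and 39.3 TPM, NDRG1 at 73.4 and 51.6 TPM and CAMKK2 at 28.0 and 32.5 TPM.

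In ENZ.VEH and APA.VEH none of the 9 was called against VEH, and none had an unadjusted p under 0.05. In APA.VEH 5 of the 9, TMPRSS2, SLC45A3, CAMKK2, ELL2 and TRPM8, were lower without overlap, against 12.4% of all genes. In ENZ.VEH SLC45A3 was higher without overlap (8.02% of all genes), and ELL2 and TRPM8 were lower (9.23%). Over all genes 0 and 1 were called, the latter higher and 0.00601% of those tested. TRPM8 stood at 2.17 and 1.87 TPM in ENZ.VEH and at 2.10 and 0.76 TPM in APA.VEH, all below the VEH libraries. SLC45A3 was at 24.2 and 32.3 TPM and at 16.9 and 19.7 TPM, above VEH in the first and below it in the second. TMPRSS2 was at 45.4 and 34.3 TPM and at 28.8 and 24.1 TPM, and PMEPA1 at 24.0 and 19.7 TPM and at 18.0 and 13.5 TPM. NDRG1 was at 86.5 and 49.0 TPM in ENZ.VEH and at 77.4 and 48.9 TPM in APA.VEH. HERC3, at 64.1 and 34.6 TPM and at 55.2 and 31.8 TPM, spread as widely as in VEH. ELL2 ran from 8.99 to 12.6 TPM, ABCC4 from 31.7 to 40.5 TPM and CAMKK2 from 25.8 to 29.9 TPM over these 4 libraries.

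Within each antagonist, DHT against its own vehicle left TRPM8 as the member with the largest difference. It was 1.04 (95% interval 0.50 to 1.58) with bicalutamide, 1.13 (0.59 to 1.68) with enzalutamide and 1.64 (1.10 to 2.18) with apalutamide on the log2 scale, against 3.46 without antagonist. TRPM8 went from 7.35 and 6.12 to 14.7 and 15.1 TPM, from 2.17 and 1.87 to 5.52 and 5.73 TPM, and from 2.10 and 0.76 to 7.61 and 5.15 TPM. The groups did not overlap in any of the 3, and 6.32%, 5.52% and 8.96% of all genes were likewise higher without overlap. None of these differences was called (adjusted p = 1, 0.844 and 0.291). Without APA.VEH replicate 1, which left replicate 2 at 0.76 TPM, the apalutamide difference was 2.05. With the replicate block the apalutamide difference was called (adjusted p = 0.0179), where 4 of all genes were called in either direction. SLC45A3 with apalutamide was the other difference whose interval left out 0, at 0.47 (0.04 to 0.90). Called genes over all tested were 0% with bicalutamide, 0.00601% with enzalutamide, higher, and 0.00601% with apalutamide, lower. At an unadjusted p under 0.05 there were 1, 1 and 2 of the 9 genes, against 234, 541 and 408 of all genes in either direction.

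The interaction of DHT with the antagonist, which sets the 2 responses against each other, was called as a smaller response for 6 of the 9 genes with bicalutamide, 7 with enzalutamide and 6 with apalutamide, against 0.667%, 1.05% and 0.805% of all genes. TMPRSS2, SLC45A3, PMEPA1, ELL2, ABCC4 and TRPM8 were called in each of the 3, and HERC3 with enzalutamide. With the replicate block NDRG1 was called with all 3 (adjusted p = 0.00344, 0.00117 and 0.00178) and HERC3 also with bicalutamide (adjusted p = 0.00321) and apalutamide (adjusted p = 0.00159). That block called 1063, 1648 and 1686 of all genes in either direction, against 164, 271 and 237 without it. The HERC3 call with enzalutamide was lost without the filter (adjusted p = 0.0827) and in 7 of the 8 fits that left out a library. The TRPM8 call with apalutamide was lost with a pseudocount of 0.1 (adjusted p = 0.154), without the filter (adjusted p = 0.0573) and in 6 of 8 such fits. The ELL2 calls were lost in 7 such fits with bicalutamide, 5 with enzalutamide and 4 with apalutamide, and those of TMPRSS2 in 4 with bicalutamide and 4 with apalutamide, whereas SLC45A3 and ABCC4 kept theirs in every such fit.

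**Figure D3:**
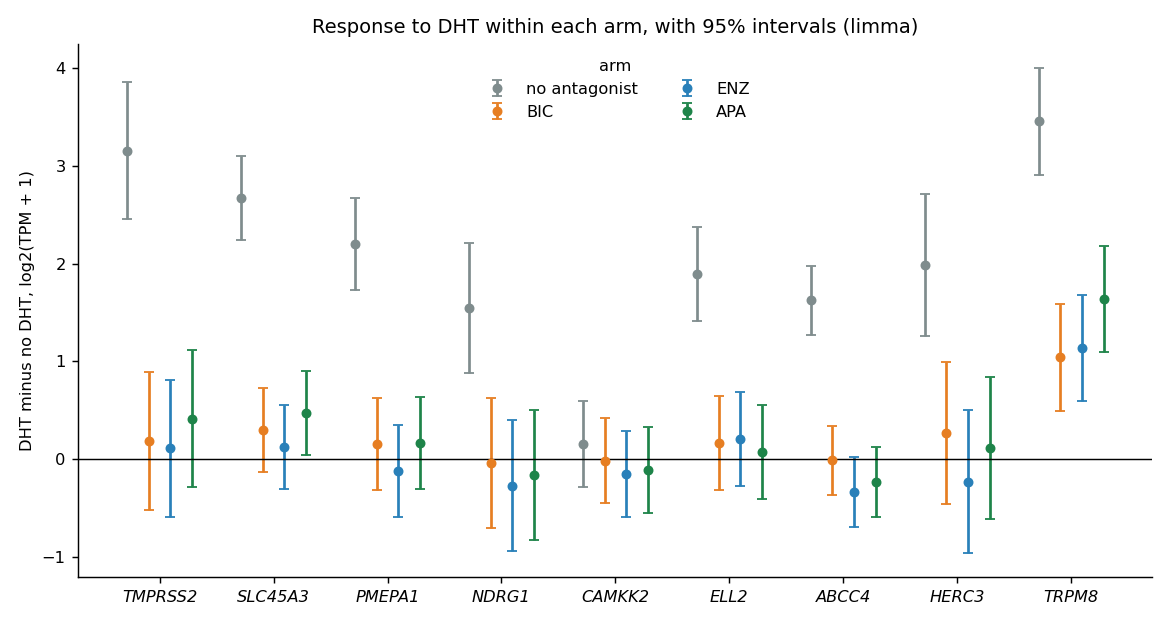
Log2(TPM + 1) difference between DHT and no DHT for the 9 genes, without antagonist (grey) and with bicalutamide (orange), enzalutamide (blue) or apalutamide (green), with limma's 95% intervals. Without antagonist 8 genes lie between 1.54 and 3.46, and with any antagonist only the TRPM8 intervals and that of SLC45A3 with apalutamide leave out 0.

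The antagonists were compared with each other at the same dose, 10 µM, and the same 48 h. With DHT present, the enzalutamide libraries were lower than bicalutamide without overlap for 7 of the 9 genes, and so were the apalutamide libraries, against 12.3% and 9.28% of all genes. Intervals that left out 0 for enzalutamide against bicalutamide were those of TRPM8 at -1.26 (95% interval -1.80 to -0.72), SLC45A3 at -0.86 (-1.29 to -0.43), PMEPA1 at -0.73 (-1.20 to -0.26), ABCC4 at -0.50 (-0.85 to -0.14) and ELL2 at -0.49 (-0.97 to -0.02). For apalutamide against bicalutamide they were TRPM8 at -1.12 (-1.67 to -0.58), SLC45A3 at -1.11 (-1.53 to -0.68), PMEPA1 at -0.90 (-1.37 to -0.42), TMPRSS2 at -0.85 (-1.55 to -0.15) and ABCC4 at -0.38 (-0.74 to -0.02). These are the 5 genes at an unadjusted p under 0.05 in each comparison. Of the 16636 genes tested, 231 were lower and 334 higher at that level with enzalutamide, and 186 and 297 with apalutamide. None was called after adjustment (lowest adjusted p = 0.887 and 0.581), and of all genes 0% were called lower in either. With the replicate block TMPRSS2, SLC45A3 and PMEPA1 were called lower with apalutamide (adjusted p = 0.0342 for each), where 9 of all genes were called in either direction.

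Without DHT the same pairs were compared. Enzalutamide against bicalutamide gave TRPM8 at -1.35 (95% interval -1.90 to -0.81), SLC45A3 at -0.69 (-1.12 to -0.26) and ELL2 at -0.54 (-1.02 to -0.06). Apalutamide against bicalutamide gave TRPM8 at -1.72 (-2.27 to -1.18, adjusted p = 0.0738), SLC45A3 at -1.28 (-1.71 to -0.85, adjusted p = 0.11), TMPRSS2 at -1.08 (-1.78 to -0.37) and PMEPA1 at -0.91 (-1.38 to -0.43). None of the 9 was called, with 3 and 4 at an unadjusted p under 0.05, and 0% and 0.00601% of all genes were called lower. Over all genes 76 and 147 were lower at an unadjusted p under 0.05, and 221 and 115 were higher. Without APA.VEH replicate 1 the TRPM8 difference was -2.13 and was called (adjusted p = 0.0229). With the replicate block, TMPRSS2, SLC45A3, PMEPA1 and TRPM8 were called lower with apalutamide (adjusted p from 0.00304 to 0.00911), where 14 of all genes were called in either direction.

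Apalutamide and enzalutamide, which share a core and differ in a ring and a spiro group, gave no call by limma on any of the 9 genes with DHT, and none had an unadjusted p under 0.05. SLC45A3 was the 1 gene whose libraries did not overlap, at 23.8 and 27.5 TPM in APA.DHT against 27.7 and 33.6 TPM in ENZ.DHT, where 5.28% of all genes were lower without overlap. The log2 differences of APA.DHT from ENZ.DHT ran from -0.26 for TMPRSS2 to 0.18 for HERC3. The narrowest interval was that of ABCC4, from -0.24 to 0.47, and TRPM8 ran from -0.41 to 0.68, so differences of this size in either direction remain possible. Without DHT, SLC45A3 was lower with apalutamide by -0.59 (95% interval -1.02 to -0.16, adjusted p = 1), the single 1 of the 9 at an unadjusted p under 0.05, and none was called. Over all genes 0.00601% were called lower with DHT and 0.00601% higher without it. Without DHT, 210 of all genes were lower and 62 higher at an unadjusted p under 0.05.

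Across the 8 groups, DHT had the highest mean TPM for each of the 9 genes, and its libraries overlapped the next group only for CAMKK2. BIC.DHT was second for TMPRSS2, SLC45A3, PMEPA1, ELL2, HERC3 and TRPM8, BIC.VEH for ABCC4 and CAMKK2, and ENZ.VEH for NDRG1. For TRPM8 and ELL2 the BIC.DHT libraries overlapped neither neighbour in the order. For TMPRSS2, SLC45A3, PMEPA1 and HERC3 they overlapped BIC.VEH, although within each replicate number BIC.DHT was the higher of the pair. These differences were not called, with or without the replicate block. From the third place down, neighbours overlapped throughout for TMPRSS2, NDRG1 and HERC3. Pearson's r of each gene's profile over the 8 group means with the mean profile of the 9 ran from 0.762 for CAMKK2 and 0.875 for TRPM8 to 0.991 for PMEPA1 and HERC3, a description in which each gene is part of the mean and the points share libraries.

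Among 1363 other genes with a mean of at least 5 TPM in a group and a range of at least 1 on the log2 scale, the profiles most like that mean were those of MBOAT2 (r = 0.998 over 8 groups), PFKFB2 (0.998), PLPP6 (0.997), FAM174B (0.996) and TMEM109 (0.994). MBOAT2, a lysophospholipid acyltransferase, averaged 86.3 TPM in VEH and 271 TPM with DHT, and adding bicalutamide, enzalutamide or apalutamide to DHT gave 124, 84.8 and 86.1 TPM. PFKFB2, which makes and removes the glycolytic activator fructose 2,6-bisphosphate, stood at 14.9, 36.4, 19.5, 14.9 and 14.1 TPM in the same order. These genes were picked for their likeness to the mean profile, so their levels are a description.

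The 21 other androgen-induced genes of the list used here, the kallikreins included, gave a similar picture. DHT raised 18 of them and lowered none, against 3.63% and 6.64% of all genes, with a median log2 change of 1.72. The largest changes were those of the kallikreins KLK2 at 6.57 and KLK3 at 6.42. These are close paralogs whose levels are uncertain wherever a read could fit both. Against DHT, bicalutamide lowered 13, enzalutamide 18 and apalutamide 18 of the 21, where 1.68%, 4.91% and 4.11% of all genes were called lower. The 18 called genes kept a median of 23.8% with bicalutamide, 4.0% with enzalutamide and 4.7% with apalutamide. The highest share with bicalutamide was that of KLK4, 70.1%, and the lowest that of STEAP4, 1.7%, and the 8 called genes lay within this range but for NDRG1.

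Close relatives of the 9 genes did not follow them. Of 31 members of the same families, 26 passed the filter, and DHT raised 1 and lowered 2, with a median log2 change of -0.11. Over all genes 3.63% were called higher and 6.64% lower, with a median of -0.10, so as a list the relatives resembled genes at large. TRPM2, another channel of the TRPM family, rose by 0.73 (adjusted p = 0.0497). TMPRSS6, a liver-type serine protease of the TMPRSS family, fell from a mean of 5.30 to 0.59 TPM (log2 change -1.97, adjusted p = 0.00129). Neither the ELL paralogs ELL and ELL3 nor CAMKK1 passed the test (log2 differences of -0.07, 0.06 and -0.03).

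**Figure D4:**
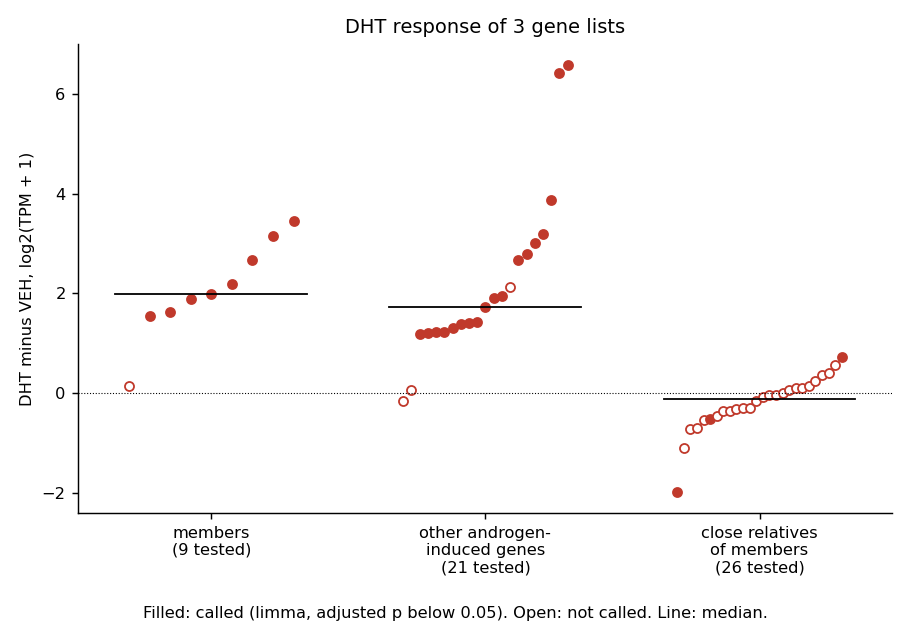
Log2(TPM + 1) change with DHT for the 9 genes, 21 other androgen-induced genes and 26 tested relatives of the 9, each point a gene, filled where called by limma at an adjusted p below 0.05, with the list's median as a line. The medians are 1.99, 1.72 and -0.11, against -0.10 over all genes tested. The lists were chosen with earlier results of these data known.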

How the data were processed

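RNA-seq of 16 LNCaP libraries in 8 groups of 2 was analysed, grouped by the sample labels. The authors trimmed reads with Trim Galore 0.6.5, checked them with FastQC 0.11.9, aligned them to GRCh38 with STAR 2.7.2b and estimated gene levels with RSEM 1.3.3 (versions from the submitters' processing notes), and deposited TPM per gene symbol, 1 column per library. TPM are parts of a constant total, and more of an abundant transcript therefore means lower values elsewhere. The 16636 genes with at least 1 TPM in 2 or more libraries were fitted as log2(TPM + 1) with limma 3.58.1 in R 4.3.3 (8 group means, all 16 libraries, trended moderation), since 2 libraries per group give little of their own spread. Changes on this scale understate those of low genes. A gene was called at a Benjamini-Hochberg adjusted p below 0.05 within its comparison, and intervals are 95% and unadjusted. SEs of shares kept came from the delta method. The genes named were the 9 members, the 2 called genes with the largest change in either direction from the list of other androgen-induced genes and from that of relatives, and the 5 most similar profiles. PFKFB2 and MBOAT2 are the 2 of these described with values, and KLK4, STEAP4, ELL, ELL3, CAMKK1 and the markers of other cell types were named after their values were seen. Replicates carry the same 2 numbers in every group, with a second mark, 3 or 7, that recurs with them and is not explained. Deviations of same-numbered libraries from their group means correlated above 0.1 in all 28 pairs of groups (0.204 to 0.635; with 2 replicates the 2 deviations mirror each other), so values with the number as a block are given beside the results they change, while the fit itself had no block. The members and lists were chosen with earlier results of these data known. The limma fit was tested on simulated data for DHT against VEH only. The simulation had independent noise in each library and no shared replicate deviations, and shares and interactions were not simulated. Alternatives were another pseudocount, no filter, median-ratio scaling, rescaling without mitochondrial genes, a replicate block, only the compared groups, and each library left out.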

Additional observations from a re-analysis of the deposited data

Results flagged for a closer look

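For 7 of the 9 genes the response to DHT differed with and without an antagonist by a test of that difference itself, the interaction of DHT with the antagonist in limma. The values are the log2 response with the antagonist minus that without it, and all were negative. With bicalutamide they were -2.97 for TMPRSS2 (adjusted p = 0.0113), -2.37 for SLC45A3 (adjusted p = 0.00236), -2.04 for PMEPA1 (adjusted p = 0.00963), -1.73 for ELL2 (adjusted p = 0.0271), -1.64 for ABCC4 (adjusted p = 0.00655) and -2.42 for TRPM8 (adjusted p = 0.00821), where 0.667% of all genes tested were called lower. With enzalutamide they were -3.05 for TMPRSS2 (adjusted p = 0.00746), -2.55 for SLC45A3 (adjusted p = 0.00129), -2.32 for PMEPA1 (adjusted p = 0.00359), -1.69 for ELL2 (adjusted p = 0.0203), -1.96 for ABCC4 (adjusted p = 0.00189), -2.22 for HERC3 (adjusted p = 0.0414) and -2.32 for TRPM8 (adjusted p = 0.00777), against 1.05% of all genes. With apalutamide they were -2.74 for TMPRSS2 (adjusted p = 0.0139), -2.20 for SLC45A3 (adjusted p = 0.00287), -2.03 for PMEPA1 (adjusted p = 0.00918), -1.82 for ELL2 (adjusted p = 0.016), -1.86 for ABCC4 (adjusted p = 0.00269) and -1.82 for TRPM8 (adjusted p = 0.0284), against 0.805% of all genes.

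The 3 tests share the DHT and VEH libraries. NDRG1 and CAMKK2 passed in none of them, and HERC3 passed with enzalutamide but not without the filter (adjusted p = 0.0827). With the replicate number as a block NDRG1 (adjusted p = 0.00344, 0.00117 and 0.00178) and HERC3 passed in all 3. The same block called 1063, 1648 and 1686 of all genes in either direction. Groups of 2 libraries are too small to be searched for single outlying libraries.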

How the results depend on the processing

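The DHT calls of 8 of the 9 genes held under the pseudocount of 0.1, without the filter and under both rescalings. With only the compared groups in the fit, 0 were called for BIC.DHT, ENZ.DHT or APA.DHT against DHT and for BIC.DHT against VEH, and 2 for the interaction with apalutamide. For BIC.DHT against VEH, the pseudocount of 0.1 left 0 called and rescaling without mitochondrial genes gave 2. Leaving out 1 library gave 3 to 4 called for BIC.DHT against DHT and 0 for BIC.DHT against VEH. It gave 0 to 1 for APA.DHT against APA.VEH and for APA.VEH against BIC.VEH (1 without APA.VEH replicate 1). The interactions went from 6 called to between 2 and 5 with bicalutamide (2 without BIC.VEH replicate 1, 3 without BIC.DHT replicate 2 or VEH replicate 2), from 7 to between 5 and 8 with enzalutamide (6 without the filter and 5 with only the compared groups), and from 6 to between 3 and 6 with apalutamide (3 without APA.VEH replicate 1 or VEH replicate 2). The CAMKK2 difference turned sign without DHT replicate 2 (-0.018 for DHT against VEH, range without 1 library up to 0.32, and 0.10 for BIC.DHT against DHT) and without BIC.DHT replicate 1 (0.097, range down to -0.24).

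The median share with bicalutamide was 17.0% on TPM and 17.3% to 40.0% without 1 library. With enzalutamide it was 0.96% under median-ratio scaling, -3.5% without mitochondrial genes, -3.2% on TPM, -0.12% over the called genes (chosen after seeing the data) and -9.1% to 9.6% without 1 library. With apalutamide it was 0.25% under median-ratio scaling and -13.2% to 6.0% without 1 library. The causes were not tested, beyond the smaller number of libraries in the fits that leave some out.

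With replicate as a block, 1 of the 9 genes was called in BIC.VEH against VEH, 4 in BIC.DHT against VEH, 1 in APA.DHT against APA.VEH, 3 in APA.DHT against BIC.DHT, 4 in APA.VEH against BIC.VEH and 8 in each interaction. The block left 8 called for the DHT comparison and for each antagonist plus DHT against DHT, changed no other call of the 9, and raised the calls over all genes for DHT against VEH from 1709 to 4559. TPM without depth and 2 libraries per group limit all of these values.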

Other observations

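TMPRSS2, PMEPA1, NDRG1 and HERC3 were higher in replicate 1 than in replicate 2 in 8 of 8 groups, and SLC45A3 and CAMKK2 were higher in replicate 2 in 7 of 8. TRPM8 was higher in replicate 1 in 6 of 8 groups, and ELL2 and ABCC4 were split 4 to 4. NDRG1 ranged from 77.4 to 86.5 TPM in the first replicates of VEH, ENZ.VEH and APA.VEH and from 48.9 to 50.8 TPM in the second. FOLH1, the prostate-specific membrane antigen, fell with DHT by 0.58 on the log2 scale (adjusted p = 0.0217, limma) and KRT18, a luminal keratin, rose by 0.64 (adjusted p = 0.00528).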
